A study of Mus musculus with 10 samples.

Results

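The secreted protein Reelin, its intracellular adaptor Dab1, the 3 Slit ligands and the receptors Robo1 and Robo2 were followed from the bud to the cap stage of the mouse first molar. The deposited values cover 27528 genes, and these genes, 7 in all, were found by their Ensembl IDs. They were selected on gene family, with the stage differences of this table already known, so what follows on the stages is a description and not a test of these genes. Both groups were embryos of the outbred NMRI stock, with no treatment and no allele named. First molars were taken at E13.5 (bud stage) or E14.5 (cap stage), E being the embryonic day, and each of the 5 arrays of a stage read a pool of 12 to 18 germs. Epithelium and mesenchyme were not separated, and a little tissue around the germ remained. A lower signal from such a pool cannot be told apart as fewer cells of a type or less RNA per cell.

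Reelin is a large glycoprotein of the extracellular matrix, best known for placing neurons in the layers of the brain. It binds lipoprotein receptors on the cell surface, and Dab1 is the adaptor that is then phosphorylated inside the cell. Slits are secreted proteins that repel growing axons and migrating cells by binding Robo receptors, which belong to the immunoglobulin superfamily. In the tooth, the study placed *Reln*, *Dab1*, *Slit1* and *Slit3* among genes that are expressed in the germ and whose loss leaves the tooth without a reported defect. Of the 7 genes, *Slit2*, *Robo1* and *Robo2* are not in the tables of the study and were named by their Ensembl IDs alone.

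The stretches of DNA in front of the genes are shown for *Reln*, which had the largest rise, and for *Slit2* and *Slit3*, the pair of ligands that fell. They are 250 bases upstream of the annotated start, read 5′ to 3′ on the strand of the gene, from RefSeq on GRCm38.p6. The *Reln* window lies at chr5:22344706-22344955 on the minus strand, that of *Slit2* at chr5:47982905-47983154 on the plus strand and that of *Slit3* at chr11:35121206-35121455 on the plus strand. Capitals mark the letters of 4 motifs searched on both strands, the GC box (GGGCGG), the TATA box (TATAAA), the CCAAT box (CCAAT) and the LEF/TCF motif (CTTTGAT).
Reln: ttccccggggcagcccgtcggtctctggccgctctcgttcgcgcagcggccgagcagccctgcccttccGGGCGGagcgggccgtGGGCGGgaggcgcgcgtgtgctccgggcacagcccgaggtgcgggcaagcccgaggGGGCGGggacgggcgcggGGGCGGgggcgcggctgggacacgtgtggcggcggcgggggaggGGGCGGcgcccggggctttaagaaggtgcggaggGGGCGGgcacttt
Slit2: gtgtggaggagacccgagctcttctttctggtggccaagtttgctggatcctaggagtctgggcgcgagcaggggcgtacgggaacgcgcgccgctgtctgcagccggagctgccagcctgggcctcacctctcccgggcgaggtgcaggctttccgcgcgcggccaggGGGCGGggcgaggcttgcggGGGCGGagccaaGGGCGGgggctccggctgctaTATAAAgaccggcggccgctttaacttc
Slit3: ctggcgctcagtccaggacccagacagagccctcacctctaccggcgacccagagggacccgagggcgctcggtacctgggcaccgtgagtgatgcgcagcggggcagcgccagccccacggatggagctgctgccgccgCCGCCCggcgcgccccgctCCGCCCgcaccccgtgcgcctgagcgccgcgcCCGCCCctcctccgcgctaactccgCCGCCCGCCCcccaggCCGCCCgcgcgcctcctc

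All 3 windows were rich in G and C. The GC content was 80.0% for *Reln*, 78.8% for *Slit3* and 69.6% for *Slit2*, against a median of 52.4% over 32851 promoter windows of the same length. The GC box occurred 6 times before *Reln*, 6 times before *Slit3*, there on the opposite strand (CCGCCC) and with 1 overlapping pair, and 3 times before *Slit2*, and 32.7% of all windows held it. A TATA box was present before *Slit2*, as in 12.4% of all windows. Neither the CCAAT box (33.8% of all windows) nor the LEF/TCF motif (3.21%) occurred in these 3. The table held 9 windows for 6 of the 7 genes, with none for *Slit1*. The 3 windows of *Robo2* and the single window of *Robo1* held none of the 4 motifs. Of the pair of *Dab1* windows, one had a CCAAT box and the other a GC box. The GC content was 65.6%, 44.8% and 53.2% in the *Robo2* windows, 56% for *Robo1*, and 56.4% and 78% for *Dab1*. The GC-rich kind of window was thus found before genes that rose and before genes that fell, but not in all 9 windows.

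RefSeq places a copy of the microRNA miR-218 inside *Slit2* (Mir218-1) and another inside *Slit3* (Mir218-2), both on the strand of their host. They are shown because the copies lie in the pair of Slit genes whose signal fell. Another microRNA, Mir691, lies inside *Robo2*. The arrays were summarised per Ensembl gene, and no value for the microRNAs was used here. The seed, bases 2 to 8, is in capitals. The 5′ product is the same for both copies, whereas the 3′ products differ in their seeds.
miR-218-5p: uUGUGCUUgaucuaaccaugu
miR-218-1-3p: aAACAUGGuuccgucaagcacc
miR-218-2-3p: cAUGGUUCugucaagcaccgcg

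*Reln*, *Dab1* and *Slit1* had higher signals in the cap than in the bud, whereas *Slit2*, *Slit3* and *Robo2* had lower signals and *Robo1* showed no difference past the threshold. In the fit over all genes (limma, adjusted p under 0.05), 6 of the 7 genes were called, 3 in each direction. Of all genes 7.85% were called, 4.36% higher and 3.49% lower at E14.5. In the same 6 genes no array of one stage reached the range of the other, as in 8.84% of all genes. Since the genes were chosen with these differences in view, nothing further is read from the counts.

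**Figure D1:**
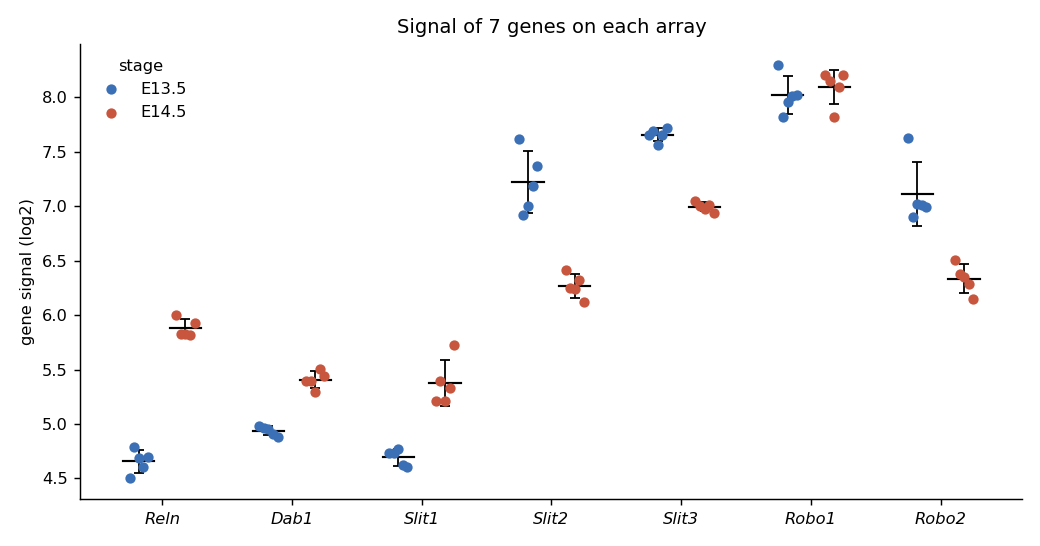
Gene signal (log2, vertical axis) of the 7 genes on each of the 5 arrays at E13.5 (blue) and E14.5 (red), with the mean (bar) and SD (whiskers). *Reln*, *Dab1* and *Slit1* sit higher and *Slit2*, *Slit3* and *Robo2* lower at E14.5 with no overlap of stages, while the *Robo1* arrays overlap; the probes of each gene differ, so heights are to be compared within a gene.

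The ligand *Reln* (ENSMUSG00000042453) read 4.50, 4.79, 4.69, 4.60 and 4.70 on E13.5 replicates 1, 2, 4, 5 and 6 (log2 signal). At E14.5 the same replicate numbers read 5.998, 5.83, 5.83, 5.82 and 5.93. Every cap stage array was above every bud stage array, and the space between the stages was 1.03 log2 units. The bud stage mean was 4.66 ± 0.11 and the cap stage mean 5.88 ± 0.08 (SD, n = 5), a difference of 1.23 ± 0.07 (SE, 95% interval 1.07 to 1.38), or 2.34-fold on the log2 reading of the values. By the size of its difference *Reln* was number 85 of the 27528 genes. On all 5 bud stage arrays it lay below the median signal of the array, which was between 5.06 and 5.22, and on all 5 cap stage arrays above it.

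*Dab1* (ENSMUSG00000028519), the adaptor that relays Reelin inside the cell, read 4.98, 4.97, 4.96, 4.91 and 4.88 at E13.5 and 5.39, 5.40, 5.30, 5.50 and 5.44 at E14.5, in the same order of replicates. The stages were again apart, by 0.32 log2 units. The means were 4.94 ± 0.04 and 5.41 ± 0.08 (SD, n = 5), and the difference was 0.47 ± 0.06 (SE, 95% interval 0.34 to 0.60), or 1.38-fold. Thus the ligand and the adaptor differed in the same direction.

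Among the Slit ligands, *Slit1* (ENSMUSG00000025020) was the one with a higher signal at E14.5. It read 4.74, 4.73, 4.77, 4.62 and 4.61 on E13.5 replicates 1, 2, 4, 5 and 6, and 5.21, 5.39, 5.21, 5.33 and 5.72 on the E14.5 arrays. The lowest cap stage array was 0.44 above the highest bud stage array, and E14.5 replicate 6 was the highest of all. The means were 4.69 ± 0.07 and 5.38 ± 0.21 (SD, n = 5), with a difference of 0.68 ± 0.10 (SE, 95% interval 0.47 to 0.89), or 1.60-fold. As with *Reln* and *Dab1*, all 5 bud stage arrays were below the array median, and at E14.5 4 of 5 were above it. These 3 genes therefore started from signals in the lower part of the array, where the share of the signal that is background is not known.

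*Slit2* (ENSMUSG00000031558) had the largest fall of the 7 genes. It read 7.62, 6.92, 7.00, 7.19 and 7.37 at E13.5 and 6.42, 6.25, 6.24, 6.32 and 6.12 at E14.5. The bud stage arrays were spread over 0.70 log2 units, and still the lowest of them was 0.50 above the highest cap stage array. The means were 7.22 ± 0.28 and 6.27 ± 0.11 (SD, n = 5), a difference of -0.95 ± 0.12 (SE, 95% interval -1.22 to -0.68), so that the bud stage signal was 1.93-fold that of the cap stage.

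*Slit3* (ENSMUSG00000056427) fell as well, with much less spread. Its bud stage arrays read 7.66, 7.69, 7.56, 7.65 and 7.72 and its cap stage arrays 7.05, 7.00, 6.97, 7.01 and 6.94. The stages were 0.51 log2 units apart. The means were 7.66 ± 0.06 and 7.00 ± 0.04 (SD, n = 5), and the difference was -0.66 ± 0.06 (SE, 95% interval -0.78 to -0.54), or 1.58-fold higher in the bud. Within each array, *Slit3* minus *Slit2* was 0.44 ± 0.27 in the bud and 0.73 ± 0.07 in the cap (SD, n = 5), with overlapping stages.

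Of the receptors, *Robo2* was lower in the cap and *Robo1* was not called. *Robo1* (ENSMUSG00000022883) read 8.30, 7.82, 7.96, 8.01 and 8.03 at E13.5 and 8.20, 8.15, 7.82, 8.10 and 8.21 at E14.5. The arrays of the stages overlapped over most of their range. The means were 8.02 ± 0.18 and 8.10 ± 0.16 (SD, n = 5), a difference of 0.07 ± 0.10 (SE, 95% interval -0.15 to 0.30), and the interval leaves room for a change of up to 0.30 log2 units.

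*Robo2* (ENSMUSG00000052516) read 7.63, 6.90, 7.02, 7.01 and 7.00 at E13.5 and 6.51, 6.38, 6.35, 6.29 and 6.15 at E14.5. All cap stage arrays were below all bud stage arrays, by at least 0.39, and E13.5 replicate 1 was well above the other bud stage arrays. The means were 7.11 ± 0.29 and 6.34 ± 0.13 (SD, n = 5), a difference of -0.78 ± 0.13 (SE, 95% interval -1.06 to -0.49), or 1.71-fold higher in the bud. Without E13.5 replicate 1 the difference was -0.65. Within each array *Robo1* minus *Robo2* went from 0.91 ± 0.14 to 1.76 ± 0.21 (SD, n = 5), without overlap, which restates the separate differences of these receptors.

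**Figure D2:**
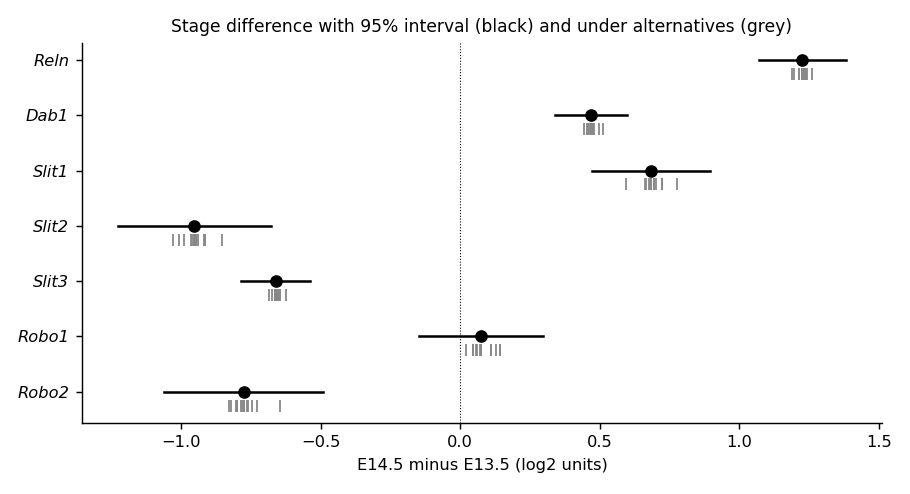
Difference between stages (E14.5 minus E13.5, log2 units) for each of the 7 genes, as the estimate (black point) with its 95% interval (black line) and the values under the alternative settings (grey ticks, 16 for *Slit1* and 17 for each other gene). Intervals of 6 genes lie on one side of 0, from 1.23 for *Reln* to -0.95 for *Slit2*, and that of *Robo1* spans 0.

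The pools also differed in the genes that mark epithelium and mesenchyme. A list of 6 dental epithelial genes (*Trp63*, *Cdh3*, *Edar*, *Perp*, *Nectin1* and *Lama3*) and a list of 8 dental mesenchymal genes (*Msx1*, *Pax9*, *Barx1*, *Lhx6*, *Lhx8*, *Pdgfra*, *Runx2* and *Dcn*) were above the array median on all 10 arrays in every gene, as the label of the tissue asks. All 6 epithelial genes were called higher at E14.5. The median of the list was between 6.99 and 7.51 on the bud stage arrays and between 7.72 and 7.92 on the cap stage arrays (log2 signal). Of the mesenchymal genes 6 of 8 were called lower, *Dcn* was called higher and *Runx2* was not called. Their median was 8.41 to 8.51 in the bud and 7.40 to 7.53 in the cap. The epithelial minus the mesenchymal median thus moved from -1.16 ± 0.20 to 0.40 ± 0.13 (SD, n = 5). The genes with higher cap signals (*Reln*, *Dab1*, *Slit1*) moved with the epithelial list and those with lower signals (*Slit2*, *Slit3*, *Robo2*) with the mesenchymal list. Between the stages any gene that rises or falls does so. The match thus restates the directions given above and does not place the genes in a tissue. The part of this balance in the differences of the 7 genes was not tested.

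Because Reelin and Slits are best known from the nervous system, 6 genes found in nerve or glia (*Bcan*, *Cspg5*, *Aqp4*, *Tac1*, *Gdnf* and *Hes5*) were read too. None of the 6 was called in either direction (limma), and 1 had an unadjusted p under 0.05. Of all genes 7.85% were called, so a list of 6 without a call is not unusual. Of the 6 genes, 4 were above the array median on all arrays. The list had medians of 5.26 to 5.55 at E13.5 and 5.40 to 5.53 at E14.5. Several of these genes are also expressed outside nerve, and defining markers of neurons were not used here, so the list is a weak gauge of nerve in the pools.

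The likeness of the genes over the 10 arrays was described with Pearson's r between each of the 6 called genes and 397 others that have a symbol here. Apart from *Slit2*, *Robo1* and *Robo2*, these symbols came from the tables of the study, which hold tooth development and signalling pathway genes. They are not a sample of all genes, so neighbours of such kinds were likely from the start and do not place a gene in a tissue. The r also includes the difference between stages, which most of the genes named share, so it is given without a test. The 3 genes most like *Reln* were *Fgf4* (r = 0.982), *Ndrg1* (r = 0.982) and *Tgfb1* (r = 0.981). *Fgf4* is a signal of the enamel knot, the epithelial signalling centre of the cap. *Dab1* was most like *Wnt10b* (r = 0.991), *Fgf16* (r = 0.986) and *Wnt10a* (r = 0.985), all secreted signals. *Slit1* was most like *Acvr1* (r = 0.983), *Cspg4* (r = 0.977) and *Fgf4* (r = 0.971).

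On the falling side, *Slit3* was most like *Lhx6* (r = 0.993), *Lhx8* (r = 0.986) and *Pax9* (r = 0.984), transcription factors of the dental mesenchyme. *Slit2* was most like *Map2k6* (r = 0.989), the receptor gene *Pdgfra* (r = 0.983) and *Ptprz1* (r = 0.976). *Robo2* was most like the laminin gene *Lama4* (r = 0.973), the adhesion gene *Alcam* (r = 0.968) and *Slit2* (r = 0.967), and this last was the one case in which a gene of the 7 was among the 3 most like another.

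Deviations of arrays from their stage mean do not use the difference between stages, so they can be tested. For 7 pairs of a ligand with its adaptor or receptor, r was computed over the 10 arrays, with arrays exchanged within a stage (14400 exact permutations, two-sided, adjusted over 7 pairs). *Slit2* and *Robo2* deviated together (r = 0.84, exact permutation p = 0.0034, adjusted 0.0238; Spearman's rho = 0.66, exact permutation p = 0.0392, adjusted 0.275). The relation rested on few arrays. Replicate 1 had the highest *Slit2* and *Robo2* at both stages (7.62 and 7.63 at E13.5, 6.42 and 6.51 at E14.5). The permutation takes no account of a link between same-numbered arrays. How often unrelated genes deviate together to this degree was not tested. Without the 2 arrays farthest from the median of *Slit2*, E13.5 replicates 1 and 2, r was 0.52 (exact permutation p = 0.108, adjusted 0.758). Without E13.5 replicate 1 alone r was 0.59 (exact permutation p = 0.0378, adjusted 0.196). *Slit2* and *Robo1* had r = 0.67 (exact permutation p = 0.0435, adjusted 0.152; rho = 0.56, adjusted 0.297), which did not pass, and fell to 0.17 without the same 2 arrays. For the other 5 pairs r was between -0.24 for *Slit1* and *Robo2* and 0.31 for *Slit1* and *Robo1*, and none passed. Without E13.5 replicate 1, r for *Slit1* and *Robo2* was -0.79 (exact permutation p = 0.0559, adjusted 0.196). *Reln* and *Dab1* had r = -0.0464 (exact permutation p = 0.895, adjusted 0.895). A shared deviation of Reelin and its adaptor beyond the stages was thus not detectable with 10 arrays.

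E13.5 replicate 1 had the highest *Slit2*, *Robo1*, *Robo2* and *Dab1* and the lowest *Reln* of the bud stage arrays. *Reln* and *Dab1*, which both rose between the stages, thus went opposite ways on this array. It also had the lowest epithelial list median, 6.99 against 7.26 to 7.51 on the other 4. Whether the deviations of the 7 genes followed the epithelial minus mesenchymal median was tested in the same way, over 7 genes. For *Reln* r was 0.74 (exact permutation p = 0.0284, adjusted 0.122; rho = 0.61, exact permutation p = 0.0854, adjusted 0.299), and 0.50 without the 2 arrays farthest from the median of that balance, E13.5 replicate 1 and E14.5 replicate 4. For *Robo2* r was -0.77 (exact permutation p = 0.0348, adjusted 0.122; rho = -0.76, exact permutation p = 0.0133, adjusted 0.0928), and for *Slit2* -0.59 (exact permutation p = 0.158, adjusted 0.369). Without those 2 arrays r was -0.51 for *Robo2* and -0.27 for *Slit2*. For the remaining genes r was 0.21 for *Dab1*, 0.33 for *Slit1*, 0.11 for *Slit3* and -0.20 for *Robo1*. *Slit3*, which fell like *Slit2* and *Robo2*, had a small positive r here and -0.24 with quantile normalization. None of the 7 passed after adjustment, so nothing is read from these signs.

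**Figure D3:**
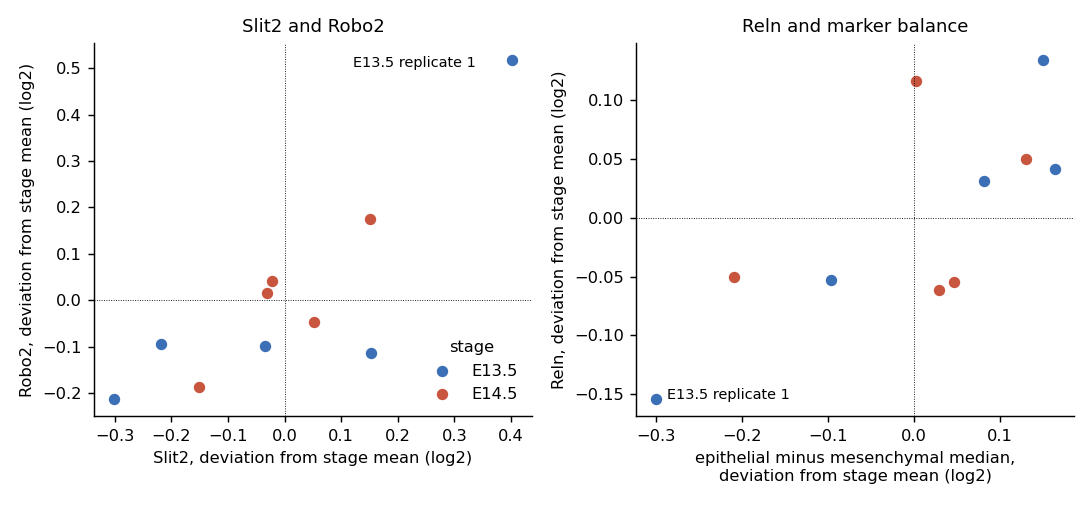
Deviations of single arrays from the mean of their stage (log2 units; E13.5 blue, E14.5 red, 5 arrays each) for *Robo2* against *Slit2* (left) and for *Reln* against the epithelial minus mesenchymal marker median (right). *Slit2* and *Robo2* deviated together (r = 0.84), with E13.5 replicate 1 farthest out. Without that array r was 0.59 and did not pass after adjustment. *Reln* tended to be higher on arrays with a higher marker balance (r = 0.74, not past the threshold after adjustment).

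Other guidance genes tabulated by the study were read in the same fit. This list too was chosen with earlier results of these data known. Its differences are therefore a description, and the p-values given with them are not an independent test. Of a list of 20 guidance, adhesion and proteoglycan genes and effectors, 19 were in the table, *Sdc3* being the exception. Of the 19, 4 were called, 1 higher and 3 lower at E14.5, against 7.85% of all genes. Most of the list is not dim, and dim genes were called less often. With genes below the median mean signal left out, 2412 of 13764 genes were called, and 5 of the list. The list median of the differences was -0.03, beside -0.01 over all genes. The receptor gene *Epha7* (ENSMUSG00000028289), a partner of ephrins in repulsion between cells, read 9.47 ± 0.15 in the bud and 8.35 ± 0.13 in the cap (SD, n = 5) and so fell by 1.12 ± 0.09 log2 units (SE, limma adjusted p = 1.85e-05). *Slitrk6* (ENSMUSG00000045871), a membrane protein of neurite growth whose outer part resembles that of Slits, fell by 0.63 ± 0.10 (SE, limma adjusted p = 0.00213). *Alcam* (ENSMUSG00000022636), an adhesion molecule of the immunoglobulin superfamily, fell by 0.46 ± 0.10 (SE, limma adjusted p = 0.0134).

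Slits and Robo receptors bind heparan sulfate, and of the 4 proteoglycan genes in the table that can carry it, *Sdc4* (ENSMUSG00000017009) was called. It rose from 7.65 ± 0.15 to 8.22 ± 0.12 (SD, n = 5), by 0.57 ± 0.09 (SE, limma adjusted p = 0.00164). In the 4 called guidance genes the stages did not overlap, as in 8.84% of all genes. The calls rest on the same difference, in a list chosen with earlier results known, so nothing further is read from this. *Gpc1*, *Gpc2* and *Sdc1* were not called, with differences of 0.31, -0.31 and 0.11, and *Gpc1* had an unadjusted limma p under 0.05. The semaphorin genes *Sema3b* (0.23) and *Sema3f* (0.15), their receptor *Nrp2* (0.15) and the 4 effector genes of Dab1 signalling, *Akt1*, *Akt2*, *Gsk3b* and *Mtor* (-0.04 to 0.09), were not called either. Of these 7 genes *Sema3b* also had an unadjusted limma p under 0.05. The receptor genes *Boc* (-0.05), *Cdon* (-0.03) and *Ret* (-0.10) and the adhesion genes *Thy1* (-0.07) and *Lrrn3* (0.10) were not called. The Reelin receptors and 10 further genes of the pathways had no Ensembl ID in the tables given and were not analysed here.

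**Figure D4:**
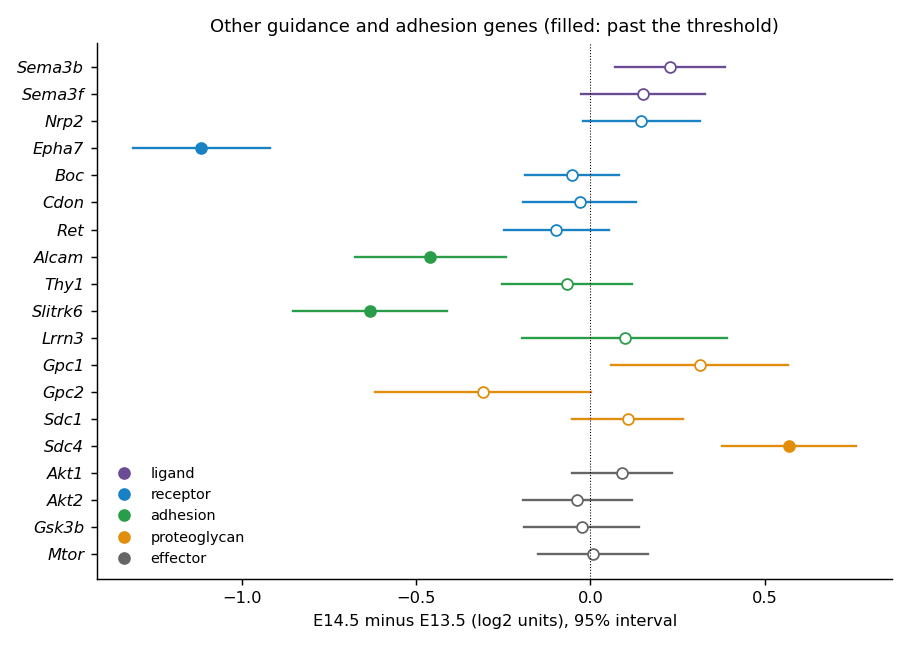
Difference between stages (E14.5 minus E13.5, log2 units) with its 95% interval for 19 other guidance, adhesion, proteoglycan and effector genes, coloured by role; filled points passed the threshold over all genes. *Epha7*, *Slitrk6* and *Alcam* were lower and *Sdc4* higher at E14.5, and the other 15 genes did not pass.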

How the data were processed

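Gene signals came from Affymetrix Mouse Exon 1.0 arrays, 5 per stage, each hybridised with its own pool of germs. The authors used aroma.affymetrix for normalization, with a Brainarray custom CDF (version 23), and deposited 1 normalized signal per Ensembl gene, taken here to be on a log2 scale from the range of 1.30 to 12.83. The log base, the background correction, detection calls and scan dates are not given in the sources used here, so folds rest on that reading, and the number of arrays limits the precision.

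All 27528 genes were fitted together with limma (3.58.1, R 4.3.3), without covariates, two-sided, with Benjamini-Hochberg adjustment and a threshold of 0.05. The fit was tested on simulated data with known changes. Within-stage correlations used exact permutations (Python 3.11.15, numpy 2.4.6, scipy 1.17.1, pandas 2.3.3, matplotlib 3.10.9). The 7 genes and all lists were chosen with earlier results of these data known. Genes named are these 7, the guidance genes past the threshold, the 3 genes most like each called gene and the marker lists, with the uncalled guidance genes beside them. The epithelial list held 2 further genes that are not reported here and were left out of its medians. Symbols came from the tables of the study, those of *Slit2*, *Robo1* and *Robo2* from their Ensembl IDs. Alternatives were quantile normalization, median centring, leaving out dim genes, array quality weights, array spread as a covariate, a replicate block, a trended robust fit and leaving out each array.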

Additional observations from a re-analysis of the deposited data

Results flagged for a closer look

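For the 7 genes, the 4 called guidance genes, the 3 marker lists and the marker balance, the 5 arrays of each stage were searched for one lying far from the rest, with a gap above 0.71 of their range. Of 30 such sets 4 had one, where 1.5 would be found by chance (1 in 20). *Robo2* was 7.63 on E13.5 replicate 1, while the remaining bud stage arrays lay between 6.90 and 7.02. *Robo1* was 7.82 on E14.5 replicate 4, below 8.10 to 8.21 on its fellow arrays. That array also had the narrowest spread of signals of the 10 (SD 1.51, next 1.58), and its epithelial list median was 7.72, below 7.87 to 7.92 on the other cap stage arrays. *Epha7* was 9.73 on E13.5 replicate 5, above 9.34 to 9.45. What set these values apart was not tested.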

How the results depend on the processing

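All 118 alternative values of the 7 stage differences kept their direction and their side of the threshold, as did all 68 of the 4 called guidance genes. The count of called guidance genes, 4 of 19, was 5 with quantile normalization, with dim genes left out and without E14.5 replicate 1, and 6 with array quality weights. *Slit1* had no value with dim genes left out. Leaving out each array in turn gave 1.19 to 1.26 for *Reln*, 0.44 to 0.50 for *Dab1*, 0.60 to 0.72 for *Slit1*, -1.03 to -0.85 for *Slit2*, -0.68 to -0.64 for *Slit3*, 0.02 to 0.14 for *Robo1* and -0.83 to -0.65 for *Robo2*. Array quality weights raised the count over all genes from 2162 to 3911. With a replicate block it was 2077, and the 6 calls among the 7 genes and the 4 among the guidance genes stayed. Same-numbered arrays of the stages had correlated deviations of -0.08 to 0.51, and 2 of 5 numbers matched best with themselves, so the numbers were not taken as pairs.

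The within-stage correlations were less stable. *Slit2* with *Robo2* no longer passed with quantile normalization (0.84), as rho (0.66), without the 2 farthest arrays (0.52) or without E13.5 replicate 1 (0.59), a setting chosen after seeing the data. With arrays centred on their median, *Slit2* with *Robo2* still passed (0.86, adjusted exact permutation p = 0.00292). In that setting *Slit2* with *Robo1* passed too (0.75, adjusted exact permutation p = 0.0476). Values with a changed sign, none past the threshold, were as follows. With quantile normalization they were 0.24 for *Reln* with *Dab1*, -0.41 for *Slit3* with *Robo1* and -0.24 for *Slit3* with the marker balance. After centring *Reln* with *Dab1* had 0.47. Without the 2 farthest arrays they were 0.0286 for *Reln* with *Dab1*, 0.22 for *Slit1* with *Robo2* and -0.0209 for *Slit3* with *Robo1*. Without E13.5 replicate 1 they were 0.17 for *Reln* with *Dab1* and 0.52 for *Robo1* with the balance. The cause was not tested. Signal over background was not analysed here.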
